A study of Homo sapiens with 4 samples.

Results

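The 10 genes described here encode the NF-kappaB subunits and the proteins that restrain or tune them. They were taken by symbol from the deposited table of normalised read counts, where all 10 were found among 56832 genes. The subunit genes are NFKB1, NFKB2, REL, RELA and RELB. The others are the IkappaB family genes NFKBIA, NFKBIE and NFKBIZ, and the ubiquitin regulator genes TNFAIP3 and BIRC3. RNA was sequenced from A375, an established human melanoma cell line labelled wild type and grown in DMEM with serum. The octanoate group (2 libraries) was given the medium-chain fatty acid octanoate at 1 mM for 48 h, and the vehicle group (2 libraries) was given its solvent isopropanol for the same time. The series was designed to find genes that rise under the fatty acid and the gene signatures they form. All cells are of 1 line, and the labels do not say whether the libraries of a group came from separate cultures, so the p-values measure the spread between these libraries only, which may be technical.

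NF-kappaB is a family of dimeric transcription factors that answer cytokines, pathogens and stress. NFKB1 and NFKB2 encode the precursors p105 and p100, which are processed to p50 and p52, while RELA, RELB and REL encode the subunits with an activation domain. Classical IkappaB proteins, unlike the atypical nuclear protein encoded by NFKBIZ, hold the dimers back until the IKK kinase complex marks them for degradation. In the non-canonical arm the kinase NIK triggers the processing of p100, which releases RELB dimers with p52. Several of these genes are themselves targets of NF-kappaB, which makes feedback loops: NFKBIA, TNFAIP3, BIRC3, NFKB2 and RELB are textbook examples. Melanoma cells are known for NF-kappaB activity without added cytokine.

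The promoters of these genes are shown first, because binding sites for NF-kappaB in them are the physical basis of that feedback. RefSeq promoter windows (GRCh38.p14) were found for 8 of the 10 genes, and RELB and NFKBIE had no entry in the table used. The 250 bases before each annotated start were searched on both strands for the NF-kappaB consensus decamer. Of the 8 genes, 7 held at least 1 match (87.5%), and RELA held none in either of its windows. Over all 27305 genes with a window, 1715 held a match (6.28%), and over the 11325 of them tested for a response, 927 did (8.19%). The genes were chosen as members of a pathway known for such sites, so this share describes the set and was not tested. A match is a run of letters, not a measured binding event. The stretches below run 5′ to 3′ on the strand of the gene, with each match in capitals. Flanking bases that fall in an annotated exon are left out, so the REL and TNFAIP3 stretches, which lie within exons annotated in GENCODE 29, are shown without flanks. The second NFKB2 stretch holds 1 exonic base. The stretches before another NFKB2 start and before another NFKBIZ start, both within annotated exons, are not shown.
NFKB1, chr4:102501290-102501328, plus strand: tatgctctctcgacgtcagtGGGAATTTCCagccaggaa
NFKB2, before an internal start, chr10:102395509-102395558, plus strand: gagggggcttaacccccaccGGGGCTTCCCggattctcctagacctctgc
NFKB2, before the same start, chr10:102395664-102395693, plus strand: cgcctccccttggtattttcGGGACTTTCC
REL, chr2:60881527-60881537, plus strand: GGGAAATTCCC
NFKBIA, chr14:35404801-35404850, minus strand: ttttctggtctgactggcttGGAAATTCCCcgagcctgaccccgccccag
NFKBIZ, chr3:101827747-101827796, plus strand: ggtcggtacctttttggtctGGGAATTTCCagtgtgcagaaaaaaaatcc
TNFAIP3, chr6:137867192-137867213, plus strand: GGAAAGTCCCgtGGAAATCCCC
BIRC3, chr11:102317265-102317378, plus strand: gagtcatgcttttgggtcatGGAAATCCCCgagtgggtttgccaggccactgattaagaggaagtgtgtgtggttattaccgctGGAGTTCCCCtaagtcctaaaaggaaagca
NFKB1, NFKBIA and NFKBIZ carry the same decamer, GGGAATTTCC, which on NFKBIA lies on the opposite strand. It begins 49 bases before the start in NFKB1, 81 bases before it in NFKBIA and 223 bases before it in NFKBIZ. REL holds that decamer as well, on the opposite strand, where it overlaps a match on the strand of the gene in a run of 11 bases. In TNFAIP3 a pair of matches is separated by 2 bases. BIRC3 has 2 matches, the first 199 and the second 135 bases before the start. NFKB2 has matches in 2 of its 3 windows.

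Library depth was similar, with between 67785956 and 78005035 whole reads recovered from the deposited values. The 10 genes were covered by between 243 reads (BIRC3 in vehicle 2) and 7941 reads (NFKB2 in octanoate 1) in a library. As a check of the label, SOX10, a defining factor of the melanocyte lineage, stood between 34072 and 41363 normalised counts, MITF between 2414 and 3533, and TYR, the pigment enzyme, between 1.93 and 3.93. Of 10 lineage markers, 9 had a mean of at least 10. PMEL, MLANA, DCT, TYRP1 and MIA were low, each under 100 normalised counts in every library. The sum of the 10 markers, most of it SOX10, ran from 45251 to 49469 in vehicle and from 38766 to 43838 in octanoate. Among them MITF (log2 difference -0.48, limma adjusted p 2.33e-06) and S100B (-1.12, 9.15e-12) were called lower and PMEL (0.55, 0.0289) was called higher. The leukocyte markers PTPRC, CD3E and CD68 all had a mean under 10, and the 5 leukocyte markers used summed to between 599 and 667 in vehicle and between 724 and 775 in octanoate, nearly all of it LYZ, which was called higher. The 5 fibroblast markers summed to between 2344 and 2389 in vehicle and between 2057 and 2186 in octanoate, with COL1A1 called lower. The 4 epithelial markers, none of them called, summed to between 11957 and 13846 in vehicle and between 11247 and 11712 in octanoate. Nearly all of each sum was KRT18. The 3 endothelial markers summed to between 201 and 207 in vehicle and between 338 and 347 in octanoate, with PECAM1 and VWF called higher. The part of these markers in the values below was not tested. In RNA from whole cultures, fewer cells that express a gene and less of its RNA per cell cannot be told apart.

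Under octanoate 5 of the genes were called higher and none lower. BIRC3 rose most, by 1.89-fold, followed by NFKB2 (1.43-fold), TNFAIP3 (1.35-fold), REL (1.24-fold) and NFKBIZ (1.18-fold). NFKB1, RELA, RELB, NFKBIA and NFKBIE did not pass the test. Differences were tested with limma on log2(normalised count + 1), two-sided, and a gene was called at a Benjamini-Hochberg adjusted p under 0.05 over 20250 tested genes. In this test 29.9% of all tested genes were called, 16.2% higher and 13.7% lower, against 5 higher and 0 lower of these 10. At an unadjusted p under 0.05, 5 of the 10 were higher and 1 lower. The median log2 difference of the 10 was 0.20, beside 0.01 over all tested genes. The groups did not overlap for 6 of the 10, 5 higher and 1 lower, a state found for 63.1% of all tested genes (32.6% higher, 30.5% lower). With edgeR on the recovered reads 4 were called higher, where 17.1% of all genes were. With DESeq2 3 were, where 15.2% of the 16324 genes it gave an adjusted p were, and none of the 10 was lower with either tool. In the authors' deposited table NFKB2, TNFAIP3 and BIRC3 had an adjusted p under 0.05, where 6.89% of the 33533 listed genes were called higher. That list is longer than the 20250 genes tested here and holds genes of lower counts, so its share is not directly comparable. The count of rises was 3 without vehicle 1 and 3 without vehicle 2, and 1 gene, NFKBIE, was called lower without octanoate 1.

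**Figure D1:**
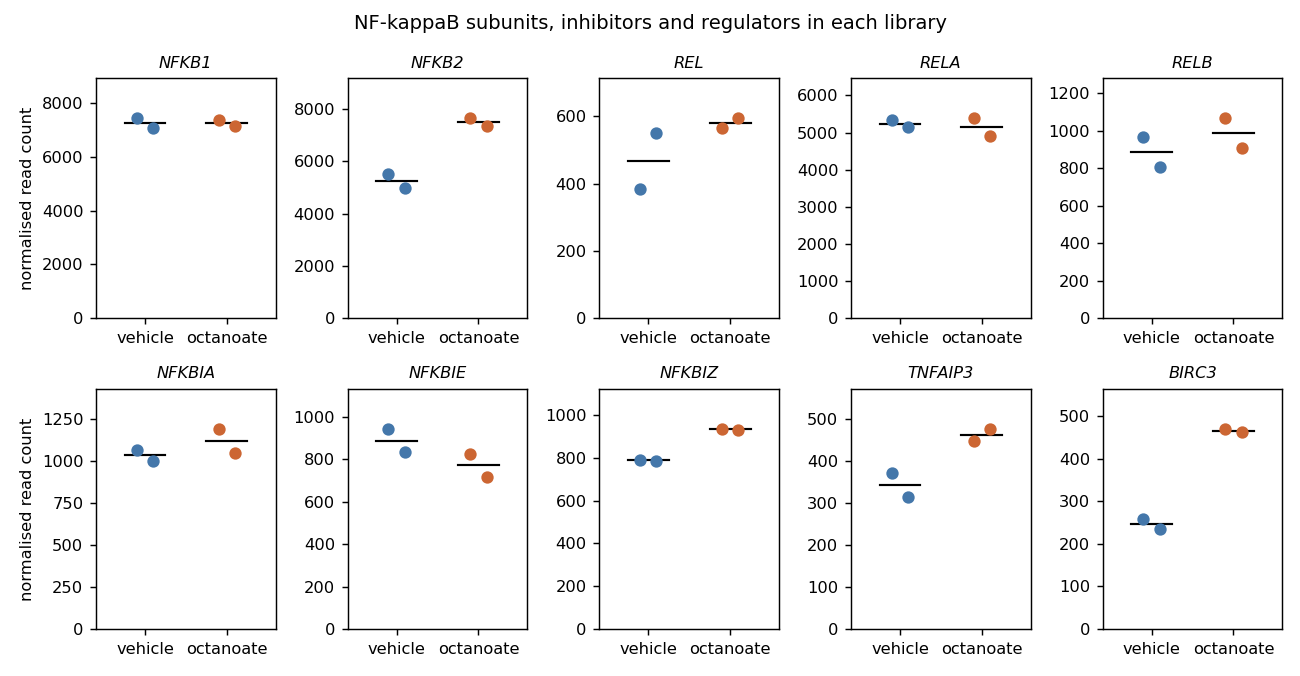
Normalised read count (vertical axes, each from 0) of the 10 genes in each of the 2 vehicle and 2 octanoate libraries; points are libraries and black lines group means. The octanoate libraries lie above both vehicle libraries for NFKB2, REL, NFKBIZ, TNFAIP3 and BIRC3, and below both for NFKBIE.

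Among the subunit genes, NFKB2 rose and its sister NFKB1 did not. NFKB2 (chr10:102394110-102402529 in GENCODE 29, plus strand) stood at 5518 and 4968 normalised counts in vehicle and at 7644 and 7352 in octanoate. Both octanoate libraries were thus well above both vehicle libraries. On the log2 scale NFKB2 differed by 0.52 (SE 0.06, 95% interval 0.39 to 0.64, limma adjusted p 4.80e-07). Of 14 alternative settings, 1 ended the call, a variance prior with no intensity trend (limma adjusted p 0.0545).

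NFKB1 (chr4:102501329-102617302, plus strand), the p105 and p50 gene, stood at 7431 and 7079 normalised counts in vehicle and at 7357 and 7158 in octanoate. The groups overlapped. NFKB1 differed by 0.00 on the log2 scale (SE 0.06, limma adjusted p 0.995), with a 95% interval from -0.12 to 0.12 that spans folds from 0.922 to 1.09. The sign of this difference was negative with equal column totals, with DESeq2 and without vehicle 2 or octanoate 1.

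RELA (chr11:65653596-65663094, minus strand), the p65 gene of the canonical dimer, stood at 5339 and 5139 normalised counts in vehicle and at 5382 and 4898 in octanoate. The octanoate libraries spanned both vehicle values. The limma estimate for RELA was -0.03 on the log2 scale (SE 0.06, 95% interval -0.16 to 0.10, limma adjusted p 0.771), and 0.04 without octanoate 2.

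RELB (chr19:45001430-45038198, plus strand), the partner of p52 in the non-canonical dimer, stood at 968 and 806 normalised counts in vehicle and at 1066 and 909 in octanoate. The library pairs overlapped, since octanoate 2 was below vehicle 1. For RELB the log2 difference came to 0.16 (SE 0.09, 95% interval -0.03 to 0.35, limma adjusted p 0.216). It was 0.27 without octanoate 2, where it was called (limma adjusted p 0.0424).

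REL (chr2:60881521-60931610, plus strand), the c-Rel gene best known from lymphocytes, stood at 385 and 550 normalised counts in vehicle and at 565 and 594 in octanoate. Vehicle 1 was far below the other 3 libraries, and vehicle 2 was close to octanoate 1. REL differed by 0.33 on the log2 scale (SE 0.12, 95% interval 0.09 to 0.58, limma adjusted p 0.0378). It rested on vehicle 1: without that library it was 0.07 (limma adjusted p 0.700), and without vehicle 2 it was 0.59. Without octanoate 2 the log2 difference was 0.30. Of 14 alternative settings, 8 ended the call. Among them were edgeR (adjusted p 0.0793), DESeq2 (0.149) and other scalings between libraries (limma adjusted p 0.0640 and 0.0843). The limma adjusted p was 0.350 with no filter on low values (SE 0.17) and 0.350 with no intensity trend (SE 0.20). The REL count is uncertain because 5702 of its 13170 exon bases overlap AC010733.2 on the same strand in GENCODE 29.

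**Figure D2:**
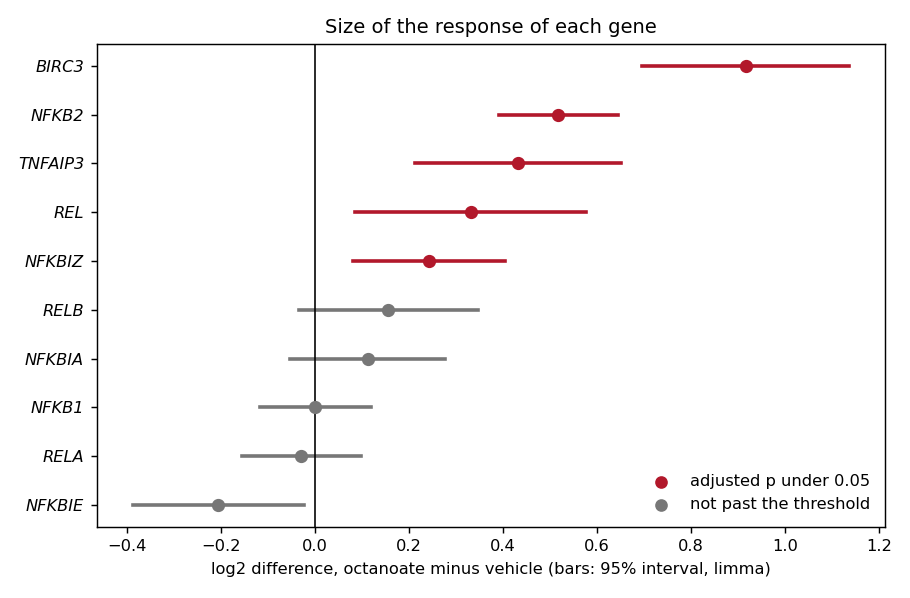
Log2 difference (octanoate minus vehicle) of each of the 10 genes with its 95% interval from limma; red marks an adjusted p under 0.05. BIRC3 (0.92) lies furthest to the right, NFKB1 sits at 0.00 and NFKBIE (-0.21) furthest to the left.

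The IkappaB genes differed among themselves. NFKBIZ, which encodes the atypical nuclear protein IkappaB-zeta, a co-regulator of secondary response genes such as cytokines, was the only 1 of the 3 called in the fit to all 4 libraries. NFKBIZ (chr3:101827991-101861022, plus strand) stood at 791 and 785 normalised counts in vehicle and at 935 and 931 in octanoate. Libraries of a group were nearly equal, and the groups were clearly apart. This was 0.24 on the log2 scale for NFKBIZ (SE 0.08, 95% interval 0.08 to 0.41, limma adjusted p 0.0214). Leaving out a library kept the size between 0.24 and 0.25 but ended the call each time: the limma adjusted p was 0.0808 without vehicle 1, 0.0944 without vehicle 2, 0.0886 without octanoate 1 and 0.0834 without octanoate 2. With DESeq2 the adjusted p was 0.0633.

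NFKBIA, which encodes IkappaB-alpha, the classical inhibitor that NF-kappaB resynthesises after activation, did not pass the test. NFKBIA (chr14:35401511-35404749, minus strand) stood at 1061 and 1001 normalised counts in vehicle and at 1188 and 1045 in octanoate. Octanoate 2 fell between the vehicle libraries. NFKBIA differed by 0.11 on the log2 scale (SE 0.08, limma adjusted p 0.316). Its 95% interval ran from -0.05 to 0.28, which spans folds from 0.964 to 1.21, and no alternative setting gave a call.

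NFKBIE, which encodes IkappaB-epsilon, a slower inhibitor of RELA and REL dimers, was the 1 gene of the 10 with both octanoate libraries below both vehicle libraries. NFKBIE (chr6:44258166-44265788, minus strand) stood at 942 and 834 normalised counts in vehicle and at 823 and 719 in octanoate. The groups did not overlap, but vehicle 2 and octanoate 1 were close. The limma estimate for NFKBIE was -0.21 on the log2 scale (SE 0.09, 95% interval -0.39 to -0.02, limma adjusted p 0.0840). Without octanoate 1 it was -0.30 and was called (limma adjusted p 0.0243). Without vehicle 1 and without octanoate 2 it shrank to -0.12 and -0.11.

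Both ubiquitin regulator genes rose. BIRC3, which encodes cIAP2, a ubiquitin ligase of the TNF receptor complex that also limits NIK, showed the largest rise of the 10. BIRC3 (chr11:102317450-102339403, plus strand) stood at 258 and 235 normalised counts in vehicle and at 470 and 463 in octanoate, far apart in every library. On the log2 scale the rise of BIRC3 was 0.92 (SE 0.11, 95% interval 0.70 to 1.14, limma adjusted p 3.69e-07). BIRC3 was called under all 14 alternative settings run, with a log2 difference between 0.85 and 0.98 and an adjusted p of at most 0.0264. In the authors' deposited table its log2 fold change was 0.92 (adjusted p 3.88e-07).

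TNFAIP3, which encodes A20, the ubiquitin-editing enzyme that shuts off signalling to IKK, rose from 372 and 315 normalised counts in vehicle to 449 and 476 in octanoate. TNFAIP3 lies at chr6:137867188-137883312, plus strand. The groups were apart, with vehicle 2 the lowest library. For TNFAIP3 the log2 difference came to 0.43 (SE 0.11, 95% interval 0.21 to 0.65, limma adjusted p 0.00310). Of 14 alternative settings, 3 ended the call. They were no filter on low values (limma adjusted p 0.0846), no intensity trend (0.108) and leaving out vehicle 2, where the difference was 0.31. In GENCODE 29, 95 of its exon bases overlap AL357060.1 on the opposite strand, and whether counting used the strand is not given in the sources used here.

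**Figure D3:**
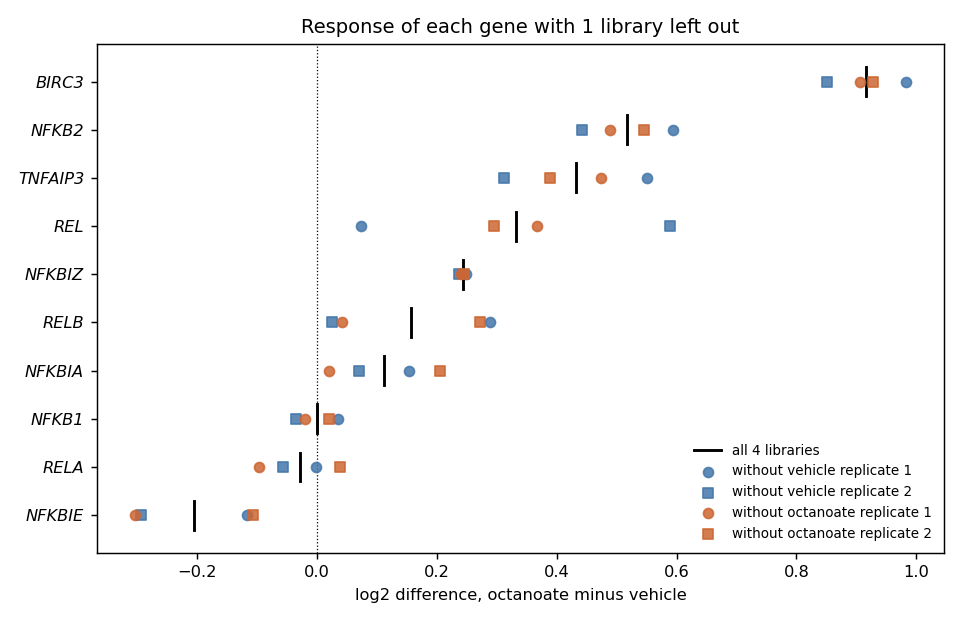
Log2 difference (octanoate minus vehicle) of each gene over all 4 libraries (black bars) and with 1 library left out (blue circle and square: without vehicle 1 and 2; orange circle and square: without octanoate 1 and 2). NFKBIZ stays between 0.24 and 0.25, whereas REL runs from 0.07 to 0.59.

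Levels of different genes were compared as normalised counts per kilobase of merged GENCODE 29 exons. In vehicle, NFKB2 (1169 ± 86.7 per kb, SD, n = 2) and NFKB1 (1160 ± 39.8) were level within their spread, and both were above RELA (959 ± 25.9). NFKBIA followed at 434 ± 18.0 per kb, then NFKBIE at 344 ± 29.6 and RELB at 292 ± 37.7, which differed from each other by less than the sum of their SDs. NFKBIZ stood at 134 ± 0.763, TNFAIP3 at 68.0 ± 8.00, REL at 35.5 ± 8.89 and BIRC3 at 32.8 ± 2.14 per kb. REL and BIRC3 did not differ beyond their spread, but the order of these genes is uncertain. Of the 13170 REL exon bases, 5702 overlap AC010733.2 on the same strand, and how reads there were counted is not given. The 2 largest rises on the log2 scale were thus those of a gene at the low end (BIRC3) and a gene at the high end (NFKB2) of the levels per kb in vehicle.

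Under octanoate NFKB2 stood above NFKB1, a pair that was level within its spread in vehicle. BIRC3 stood above REL by the same measure, but that order is uncertain because of the overlap in the REL exons. NFKB2 reached 1672 ± 46.0 per kb while NFKB1 remained at 1160 ± 22.4, and BIRC3 (62.0 ± 0.655) stood above REL (44.0 ± 1.55). Because such ratios are taken within a library, they do not depend on the scaling between libraries. The ratio of NFKB2 to NFKB1 per kb was 1.04 in vehicle 1, 0.979 in vehicle 2, 1.45 in octanoate 1 and 1.43 in octanoate 2. NFKB2 made up 32.3% ± 0.779 (SD, n = 2) of the summed level per kb of the 5 subunit genes in vehicle and 40.4% ± 0.509 (SD, n = 2) under octanoate. The shares of NFKB1 and RELA went from 32.1% ± 0.508 to 28.0% ± 0.581 and from 26.5% ± 0.614 to 22.7% ± 0.600. These are shares of RNA, not of protein or of dimers.

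**Figure D4:**
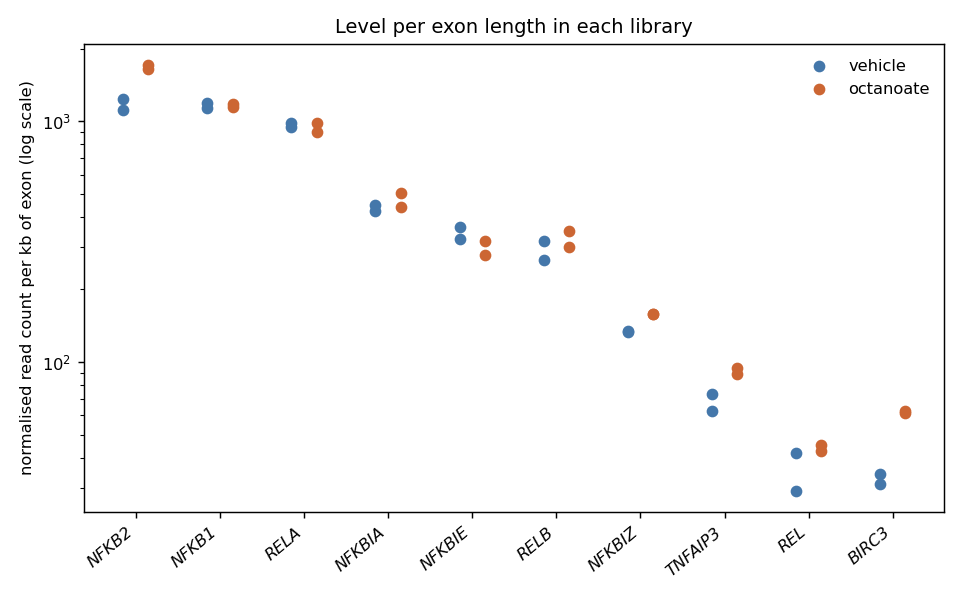
Normalised read count per kilobase of merged exon (log scale) of each gene in the 2 vehicle (blue) and 2 octanoate (orange) libraries, ordered by the vehicle mean. NFKB2, NFKB1 and RELA lie highest, and BIRC3 and REL lowest. The place of REL is uncertain, since part of its exons overlaps another gene on the same strand.

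The ratio of NFKBIA to RELA per kb, an inhibitor against its main target, was 0.458 and 0.448 in vehicle and 0.508 and 0.491 in octanoate. The ratio of NFKBIE to NFKBIA was 0.816 and 0.766 in vehicle and 0.637 and 0.632 in octanoate. The cIAP genes BIRC3 and BIRC2 are neighbours on chromosome 11, and BIRC3 is the textbook NF-kappaB target. BIRC3 stood at 0.0221 and 0.0192 of the BIRC2 level per kb in vehicle and at 0.0383 and 0.0401 in octanoate. BIRC2 itself stood at 7057 and 7383 normalised counts in vehicle and at 7394 and 6950 in octanoate, or -0.01 ± 0.06 on the log2 scale (SE, limma adjusted p 0.922), with the groups overlapping. The ratio of NFKBIA to NFKB2, which encodes the inhibitory precursor p100, was 0.363 and 0.381 in vehicle and 0.294 and 0.269 in octanoate. The ratio of RELB to RELA was 0.326 and 0.282 in vehicle and 0.357 and 0.334 in octanoate, and that of REL to RELA 0.0299 and 0.0444 against 0.0436 and 0.0503. Of these 7 ratios, counting that of NFKB2 to NFKB1, the groups did not overlap for 6 and overlapped for REL to RELA. Among single genes, 63.1% of those tested had groups that did not overlap. No such share was computed for ratios. The ratios share genes, among them RELA and NFKBIA, so they are not separate observations, and they were not tested.

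To place the 10 genes in their pathway, 106 other genes in 6 lists were examined, of which 92 had a mean of at least 10. Of these, 31 were higher (33.7%) and 14 lower (15.2%), beside 16.2% and 13.7% of all tested genes. The core kinase complex did not pass the test. CHUK, which encodes IKK-alpha, differed by 0.03 on the log2 scale (SE 0.06, limma adjusted p 0.718), IKBKB, which encodes IKK-beta, by 0.07 (SE 0.06, limma adjusted p 0.436) and IKBKG, which encodes NEMO, by 0.00 (SE 0.08, limma adjusted p 0.994). IKBKG shares 1073 bases with the pseudogene IKBKGP1, so its count is uncertain.

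Among the 22 tested adaptor and IKK genes, 3 were higher (13.6%) and 5 lower (22.7%), beside 16.2% and 13.7% of all tested genes. IRAK2, a kinase downstream of interleukin-1 and Toll-like receptors, rose from 294 and 289 normalised counts to 659 and 637, or 1.15 ± 0.10 on the log2 scale (SE, limma adjusted p 1.80e-09). RIPK2, the kinase of NOD receptors, rose by a log2 step of 0.44 (limma adjusted p 1.94e-05). MYD88, the adaptor of the same receptors as IRAK2, fell from 3344 and 2999 to 2512 and 2359 (limma adjusted p 0.000115). RIPK1, the scaffold kinase of the TNF receptor complex, fell from 2428 and 2405 to 1991 and 2039 (limma adjusted p 0.00292), and 238 of its exon bases overlap a gene on the opposite strand. TRAF5 and IKBKE were called in opposite directions at 0.21 and -0.30. TRAF5 was not called without vehicle 1 (0.16, limma adjusted p 0.229) or octanoate 2 (0.14, 0.298), nor IKBKE without vehicle 2 (-0.28, 0.0676) or octanoate 2 (-0.20, 0.150), and IKBKE shares 156 exon bases with C1orf147, which runs the other way.

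In the non-canonical arm, which acts on the NFKB2 product, 2 of 8 tested genes were higher and 1 lower (12.5%), where 16.2% and 13.7% of all tested genes were. TNFRSF12A, the receptor of the cytokine TWEAK, rose from 10215 and 9379 normalised counts to 14509 and 13313, or 0.51 ± 0.06 on the log2 scale (SE, limma adjusted p 6.08e-07). CD40, another receptor of this arm, rose by a log2 step of 0.38 (limma adjusted p 0.00550), but was not called without vehicle 2 (0.30, limma adjusted p 0.0887) or octanoate 2 (0.26, 0.121). MAP3K14, which encodes NIK, the kinase that starts p100 processing, fell from 1278 and 1188 to 975 and 902, or -0.39 ± 0.08 on the log2 scale (SE, limma adjusted p 0.000385). NFKB2 and MAP3K14 were thus called in opposite directions, but 713 exon bases of MAP3K14 overlap MAP3K14-AS1 of the other strand, and how its reads were divided is uncertain.

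Of the other 3 IkappaB proteins, BCL3 fell (33.3%, beside 13.7% of all tested genes) and none rose. BCL3, a nuclear partner of p50 and p52 homodimers, stood at 1320 and 1109 normalised counts in vehicle and at 875 and 778 in octanoate, or -0.55 ± 0.09 on the log2 scale (SE, limma adjusted p 3.04e-05). In this list no gene was higher at an unadjusted p under 0.05, with edgeR or with DESeq2. Of 17 other negative regulators, 2 were higher (11.8%) and 1 lower (5.88%), beside 16.2% and 13.7% of all tested genes. ZC3H12A, an RNase that degrades cytokine mRNA, rose from 347 and 280 to 541 and 560, or 0.82 ± 0.11 on the log2 scale (SE, limma adjusted p 2.54e-06). TRAF1, which like BIRC3 joins the TNF receptor complexes and is a known NF-kappaB target, fell from 1734 and 1508 to 1158 and 1038, or -0.56 ± 0.08 on the log2 scale (SE, limma adjusted p 7.20e-06). NLRC5, called at a log2 difference of 0.20 (limma adjusted p 0.0468), lost the call without any 1 of the libraries (limma adjusted p between 0.0708 and 0.268).

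The ligand and receptor list held 12 tested genes, 8 higher (66.7%) and 3 lower, beside 16.2% and 13.7% of all tested genes. TNF itself had 1, 0, 1 and 0 reads in the 4 libraries and was not tested. The interleukin-1 genes IL1A and IL1B had log2 differences of 2.93 and 3.54 (limma adjusted p 5.09e-19 and 4.81e-17). TNFRSF1B, which encodes TNF receptor 2, rose from 1032 and 920 normalised counts to 2132 and 1871 (limma adjusted p 3.18e-10). TLR3, the receptor for double-stranded RNA, fell from 761 and 748 to 596 and 590 (limma adjusted p 0.00281). IL18 had a log2 difference of -0.67 (limma adjusted p 0.00318), and -0.44 without octanoate 2, where it was not called (limma adjusted p 0.0811).

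Of 30 tested genes listed here as known NF-kappaB targets, 16 were higher (53.3%) and 3 lower (10.0%), beside 16.2% and 13.7% of all tested genes, with a median log2 difference of 0.37. Other known targets were counted elsewhere, among them TRAF1 and BCL3, which fell, and NFKB2, TNFAIP3 and BIRC3, which rose. The shares thus depend on which genes were listed, and the lists were chosen with earlier results of these data known. CXCL3, a neutrophil chemokine, rose from 111 and 94.0 normalised counts to 541 and 595 (limma adjusted p 1.95e-13). BCL2A1, a survival gene of the BCL2 family, rose from 89.3 and 87.2 to 344 and 331 (limma adjusted p 7.99e-11), and shares 287 bases with ST20. CSF2, the GM-CSF gene, rose from 18.6 and 37.8 to 319 and 272 (limma adjusted p 3.92e-11). CCL2, a monocyte chemokine, fell from 226 and 230 to 52.9 and 33.6 (limma adjusted p 9.37e-10). IER3, an early response gene, stood at 7902 and 7506 in vehicle and at 6839 and 6270 in octanoate (limma adjusted p 0.00440). It was not called without vehicle 1 (limma adjusted p 0.0633) or octanoate 2 (0.113), and 359 of its exon bases overlap a gene on the opposite strand. Known targets were thus called in both directions, as were genes of each other list but that of IkappaB proteins.

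**Figure D5:**
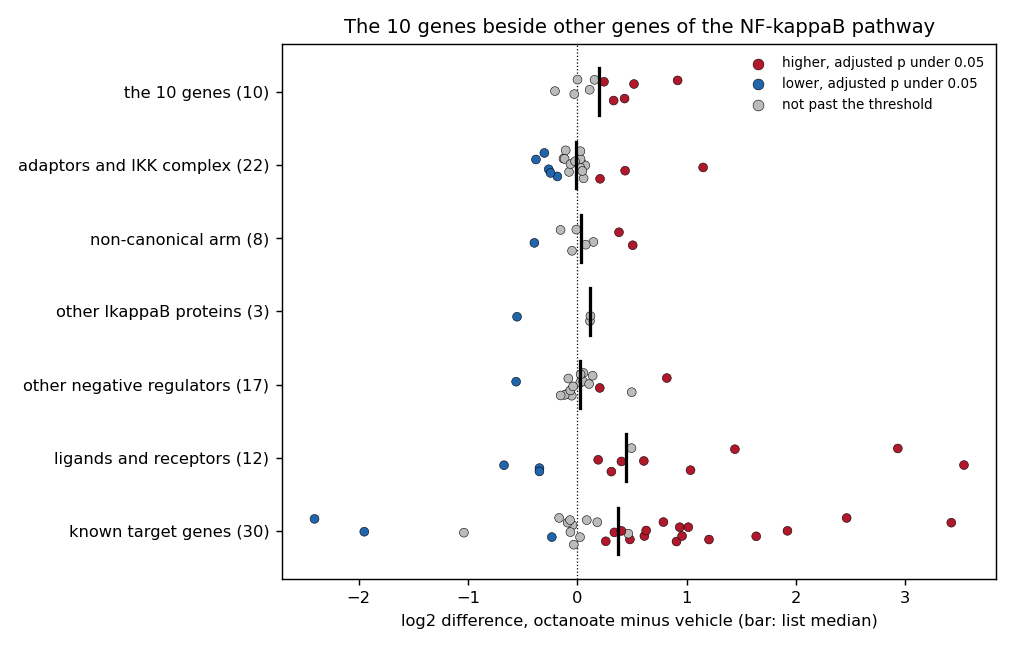
Log2 difference (octanoate minus vehicle) of the 10 genes and of the tested genes of the 6 other lists (number in brackets); red and blue mark an adjusted p under 0.05, and black bars list medians. The known targets run from the fall of CCL2 to the rise of CSF2 (3.42), a wider range than that of the 10 genes.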

How the data were processed

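RNA of 4 A375 libraries was analysed from 2 deposited tables. Per the submitters' processing notes, bcl2fastq 2.17, Trim Galore, STAR 2.4, Picard, HTSeq 0.9.1 and DESeq2 were used with build hg38, and the annotation and strand setting are not given in the sources used here. The main table holds, per its name, counts normalised with DESeq2, which were read here as counts divided by a size factor. Every positive value (100% in each library) was a whole multiple of 1 step, to a tolerance of 1e-06, so whole reads were recovered. The second deposited table holds the authors' mean signal, log2 fold change, test score, p-value and adjusted p-value.

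The normalised counts were fitted with limma 3.58.1 (R 4.3.3) on log2(value + 1) with an intensity trend, for genes with a mean of at least 10. An exact permutation test of 2 against 2 libraries cannot go below 0.333. edgeR 4.0.16 and DESeq2 1.42.0 on the recovered reads were alternatives, with other pseudocounts, filters, scalings, a replicate block and each library left out. On simulated counts for 19963 genes, limma recovered 57.4% of genes changed by 0.5 and 77.6% of those changed by 1 on the log2 scale, and 5 of its 157 calls were false. The simulation changed far fewer genes (61 by 0.5, 67 by 1 and 69 by 2) than were called in the data (6048). These rates therefore need not hold for the data. Positions, exon lengths and overlaps come from GENCODE 29 (GRCh38) and shared sequence from blastn 2.17.0 (at least 95% identity over 100 bases). Merged exons include rare transcripts, so levels per kilobase are approximate.

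The 10 genes and the lists were chosen with earlier results of these data known. Named pathway genes were, per list, up to 3 called higher and 2 called lower with a mean of at least 100 and the largest difference, plus RIPK1, CHUK, IKBKB, IKBKG, BIRC2, TNF, IL1A and IL1B. Protein sequences were not analysed here, and 1 leukocyte marker is not reported here.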

Additional observations from a re-analysis of the deposited data

How the results depend on the processing

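Of 140 values of the 10 genes under 14 alternative settings, 112 kept their direction and side of the threshold, 19 lost the call, 4 gained it and 5 changed sign, all 5 in genes that were not called. With a variance prior that had no intensity trend, 1625 genes were called, with 1 of the 10 genes higher and, of the other pathway genes, 15 higher and 1 lower. With no filter on low values, 2595 genes were called, 2 of the 10 were higher and 7 pathway genes lower. DESeq2 called 3 of the 10 higher. The cause of these differences was not tested. With 1 library left out, between 3 and 4 of the 10 were higher and between 0 and 1 lower. The lone library of a group was then assumed to vary like the other group. With the replicate block, 8376 genes were called, 6 of the 10 higher and 1 lower, with RELB (limma adjusted p 0.0451) and NFKBIE (limma adjusted p 0.0109) added. The labels do not say what the numbers mark, and same-numbered libraries deviated together with a correlation of 0.13 across 20250 genes. Sign changes were those of NFKB1 (-0.00655 with equal column totals, -0.00628 with DESeq2, and between -0.0343 and 0.0357 with 1 library left out), RELA (between -0.0966 and 0.0391 with 1 library left out), IKBKG (-0.00604 with equal column totals, -0.00660 with DESeq2, and between -0.0586 and 0.0610 with 1 library left out) and BIRC2 (between -0.0546 and 0.0348 with 1 library left out). With 2 libraries a group, genes such as RELB, whose interval spans folds from 0.977 to 1.27, could have changed by that much without passing the test.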

Other observations

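The consensus decamer that marks the promoters of most of these genes was also set beside the response of all tested genes, as a description without a test. Of the 927 tested genes with a match in the 250 bases before a start, 217 were called higher (23.4%) and 159 lower (17.2%). Of the 10398 with a window and no match, 1872 were higher (18.0%) and 1802 lower (17.3%). Median log2 differences were 0.01 and -0.01. Among the lists, a match was held by 15 of 29 known target genes with a window (51.7%), 2 of 3 other IkappaB genes and 0 of 19 adaptor and IKK genes. It was also held by 2 of 6 genes of the non-canonical arm (33.3%), 3 of 14 other negative regulators (21.4%) and 2 of 15 ligands and receptors (13.3%). The share over all tested genes with a window was 8.19%. The letters of a match say nothing on whether a factor was bound in these cells.

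NFKB1, NFKBIA, NFKBIZ and REL carry the same decamer, and their log2 differences were 0.00, 0.11, 0.24 and 0.33. TRAF1 and BCL3, both known NF-kappaB targets, fell while BIRC3 rose, with log2 differences of -0.56, -0.55 and 0.92.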
